A study of Mus musculus with 8 samples.

Results

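TAM receptors are a family of 3 receptor tyrosine kinases, encoded by Tyro3, Axl and Mertk, and their ligands are encoded by Gas6 and Pros1. These 5 genes were taken from the table of normalized counts by their deposited symbol, out of 53801 genes listed, and the Ensembl identifier of each of the 5 carried the same symbol in GENCODE M21. The table covers microglia sorted from the cortex of 8 mice aged 30 postnatal days, collected 4 h after a one-sided injection into a cerebral ventricle. In 4 mice (1 to 4) the injection held IL-33, a cytokine of the interleukin-1 family, and in 4 (5 to 8) it held the vehicle, named PBS in the header of the table, with 2 females and 2 males in each group. No genotype, strain or transgene is named in the labels for either group, and the sources used here do not name the surface markers of the sort. Each library held between 6989640 and 9323677 reads, and each mouse was 1 replicate.

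The ligands of this family bridge a dying cell and a phagocyte. Gas6 and protein S, the product of Pros1, bind phosphatidylserine on the dying cell through a domain that needs vitamin K-dependent carboxylation, and their other end binds the receptor. GAS6 binds all members of the receptor family, whereas protein S acts on TYRO3 and MERTK. In phagocytes, MERTK drives engulfment of apoptotic cells in the resting state, AXL is known as the member induced by inflammatory stimuli, and signalling from both restrains cytokine production. In brain, microglia use these receptors to clear apoptotic cells and synaptic material.

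With IL-33 the family moved in both directions. Mertk, Gas6 and Pros1 fell, to 0.255, 0.148 and 0.522 of their vehicle means, and Axl rose to 6.64 times its vehicle mean. Tyro3 was near the limit of detection in both groups. All 4 members that passed the filter on low values were called, 3 lower and 1 higher. This stands beside 57.7% of 15110 genes called over the whole table, 28.5% lower and 29.2% higher, so a called gene was the common case in this comparison.

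The stretches of genome from 250 bases before to 50 bases after the transcript start are printed for the 3 members with the largest changes, Mertk (chr2:128698665-128698964, plus strand), Axl (chr7:25788684-25788983, minus strand) and Gas6 (chr8:13494486-13494785, minus strand). They are shown 5′ to 3′ along the gene, from RefSeq on GRCm38.p6, and capitals mark matches to the motifs searched.
Mertk: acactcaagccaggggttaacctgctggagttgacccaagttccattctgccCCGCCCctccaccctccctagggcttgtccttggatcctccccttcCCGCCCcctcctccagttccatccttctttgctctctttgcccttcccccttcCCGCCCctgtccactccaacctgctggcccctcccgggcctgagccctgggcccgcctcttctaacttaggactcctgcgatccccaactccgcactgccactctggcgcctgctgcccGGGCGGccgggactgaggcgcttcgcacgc
Axl: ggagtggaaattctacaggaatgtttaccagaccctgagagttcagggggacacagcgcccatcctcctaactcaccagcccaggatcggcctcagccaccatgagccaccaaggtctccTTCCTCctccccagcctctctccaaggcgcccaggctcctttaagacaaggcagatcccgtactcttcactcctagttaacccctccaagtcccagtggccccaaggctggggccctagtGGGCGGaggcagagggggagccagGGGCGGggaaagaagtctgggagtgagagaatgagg
Gas6: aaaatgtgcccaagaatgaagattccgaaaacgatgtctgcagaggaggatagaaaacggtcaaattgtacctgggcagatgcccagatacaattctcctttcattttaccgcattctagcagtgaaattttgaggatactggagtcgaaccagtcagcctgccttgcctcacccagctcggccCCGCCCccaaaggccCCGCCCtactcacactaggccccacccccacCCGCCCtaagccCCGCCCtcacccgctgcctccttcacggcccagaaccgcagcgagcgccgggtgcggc

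The capitals in the Mertk and Gas6 stretches are GC boxes (GGGCGG on either strand), which bind SP family factors, with 4 in each. Axl held 2 GC boxes and 1 core motif of PU.1 (GAGGAA on either strand, capitals in the middle of the sequence), a factor that defines macrophages. Tyro3 and Pros1, whose sequences are not printed, held 6 and 5 GC boxes. Of 32851 promoter stretches of the same length in the table, 35.7% held a GC box and 28.3% the PU.1 core. The search also covered AP-1 (TGANTCA, in 7.81% of all promoters), the nuclear receptor half-site (AGGTCA, 16.3%), the core of the interferon response element (3.44%), TATAAA (13.6%) and the NF-kB consensus (8.46%). None of these 5 motifs was found in the stretches of Mertk, Axl, Gas6 or Pros1, and the NF-kB consensus was found in that of Tyro3. The stretches of all 5 genes were rich in G and C, from 58.3% in Gas6 to 73.3% in Tyro3, against a median of 52.7%. These matches describe letters in a window of 300 bases and do not show which factor binds there.

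Mertk, the receptor for engulfment of apoptotic cells (ENSMUSG00000014361, chromosome 2, 128698956 to 128802894), read 10626, 10514, 9672 and 10268 normalized counts in vehicle mice 5, 6, 7 and 8. In IL-33 mice 1, 2, 3 and 4 it read 2848, 2584, 2718 and 2309.6. All IL-33 mice lay far below all vehicle mice, and within a group the spread was small, with a coefficient of variation of 4.15% and 8.81%. The mean fell from 10270 ± 426 to 2615 ± 230 (SD, n = 4 each), a log2 fold change of -1.98 ± 0.07 (SE, limma adjusted p = 3.43e-13). In the authors' deposited table Mertk stands at -1.97 ± 0.08 on the log2 scale. The counts come from bulk samples, in which fewer cells of a type and less RNA per cell cannot be told apart.

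Mertk shares its position with 2 small annotated transcripts, and whether the counting used strand is not given in the sources. Gm14011, an antisense transcript whose gene body spans 1 exon of Mertk but whose own exons share 0 bases with Mertk exons, read 122 to 252 normalized counts in vehicle mice and 27.4 to 57.9 in IL-33 mice (log2 fold change -2.10, limma adjusted p = 1.76e-07). Gm23172, a small nucleolar RNA gene inside an intron of Mertk and on its strand, read 168 to 272 and 51.2 to 81.0 (log2 -1.87, limma adjusted p = 1.59e-07). Both fell by about as much as Mertk, and reads from introns of Mertk transcripts cannot be told apart from reads of these genes. Their part in the count of Mertk itself was not tested, and both levels are small beside that of Mertk.

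Axl, the receptor known for its induction in inflammation (ENSMUSG00000002602, chromosome 7, 25757273 to 25788705), read 116, 128, 96.1 and 67.1 normalized counts in vehicle mice 5 to 8. In IL-33 mice 1 to 4 it read 789, 634, 612 and 664. The lowest IL-33 mouse lay well above the highest vehicle mouse. The mean rose from 102 ± 26.5 to 675 ± 79.2 (SD, n = 4 each), a log2 fold change of 2.75 ± 0.14 (SE, limma adjusted p = 2.73e-11), and 376 of the genes tested rose by more. Axl varied most among the called members in vehicle mice, with a coefficient of variation of 26.1%, and both vehicle males lay below both vehicle females.

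Tyro3, the member known from neurons (ENSMUSG00000027298, chromosome 2, 119797733 to 119818104), read 0, 6.54, 3.66 and 11.01 normalized counts in vehicle mice 5 to 8 and 5.07, 3.97, 7.53 and 4.45 in IL-33 mice 1 to 4. The groups overlapped, and 1 of 8 libraries reached the filter of 10, so Tyro3 was left out of the test over all genes. It rested on 21 reads in each group, which is 0.640 RPM (reads scaled to 1000000 per library) with vehicle (exact Poisson 95% interval 0.396 to 0.978) and 0.656 with IL-33 (0.406 to 1.003). These intervals cover counting error only. Fitted with no filter, Tyro3 was at 0.43 ± 0.58 (SE, limma adjusted p = 0.613). With an SE this wide, a difference of this size could not be detected at this depth. The group means were nearly equal, at 5.30 normalized counts with vehicle and 5.26 with IL-33. The sign of the log2 value turned from 0.43 to -0.29 without vehicle mouse 5, which had 0 reads. The summed level of 8 neuron markers was 20.3 to 35.8 RPM in vehicle mice and 19.0 to 28.9 in IL-33 mice, and all 8 had reads. The part of neuronal RNA in the reads of Tyro3 was not tested.

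**Figure D1:**
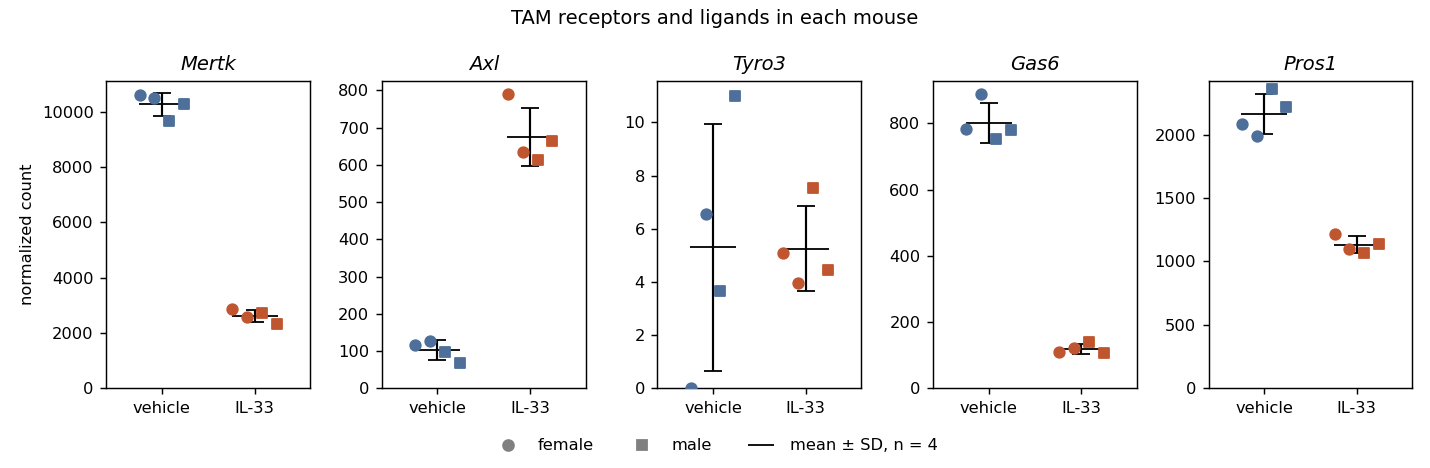
Normalized counts of the 5 genes (vertical axis, linear and starting at 0, one scale per gene) in each vehicle and IL-33 mouse, with circles for females, squares for males and black bars for the mean ± SD of 4 mice. Groups do not overlap for Mertk, Axl, Gas6 and Pros1, and overlap for Tyro3.

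Of the ligands, Gas6 fell further than Pros1. Gas6, the ligand of all the receptors (ENSMUSG00000031451, chromosome 8, 13465374 to 13494490), read 782, 889, 752 and 781 normalized counts in vehicle mice 5 to 8 and 109, 122, 138 and 106 in IL-33 mice 1 to 4. Every IL-33 mouse was below every vehicle mouse by a wide gap. The mean fell from 801 ± 60.1 to 119 ± 14.9 (SD, n = 4 each), a log2 fold change of -2.75 ± 0.12 (SE, limma adjusted p = 2.63e-12), and 210 of 15110 genes fell by more. The last 3100 bases of Gas6 overlap Tmem255b on the other strand, which read 0 to 4.58 normalized counts in the 8 mice.

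Pros1, which encodes the anticoagulant protein S (ENSMUSG00000022912, chromosome 16, 62854307 to 62929346), read 2083, 1991, 2359 and 2222 normalized counts in vehicle mice 5 to 8. In IL-33 mice 1 to 4 it read 1220, 1096, 1065 and 1141. The groups were again apart, by a smaller factor. The mean fell from 2164 ± 161 to 1131 ± 67.5 (SD, n = 4 each), a log2 fold change of -0.93 ± 0.08 (SE, limma adjusted p = 2.08e-08). The groups did not overlap in any of the 4 tested members, as was the case for 52.3% of all genes tested.

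Levels can be set side by side once each normalized count is divided by the length of the annotated exons. In vehicle mice the order was Mertk, Pros1, Gas6, Axl and Tyro3, at 2368 ± 98.2, 529 ± 39.4, 314 ± 23.6, 20.2 ± 5.27 and 0.856 ± 0.751 normalized counts per kilobase (SD, n = 4). In IL-33 mice Axl stood above Gas6. The order was then Mertk at 603 ± 53.1, Pros1 at 277 ± 16.5, Axl at 134 ± 15.7, Gas6 at 46.6 ± 5.86 and Tyro3 at 0.848 ± 0.255. In neither group did the ranges of neighbours in this order overlap. By this length-adjusted level Mertk was at rank 54 of 15101 genes with vehicle and at rank 388 with IL-33, while Axl went from rank 10712 to rank 2755 and Gas6 from rank 798 to rank 7103.

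**Figure D2:**
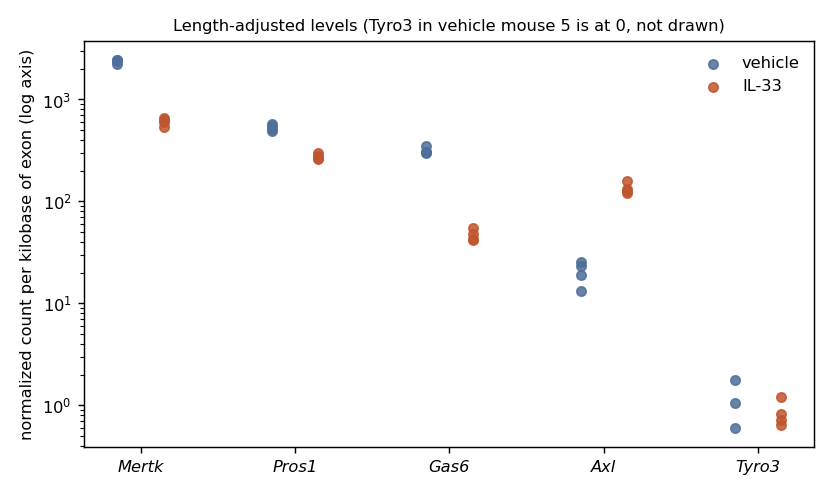
Normalized counts per kilobase of annotated exon (vertical log axis) for the 5 genes in vehicle and IL-33 mice, 1 point per mouse. Mertk stays highest in both groups, Axl passes Gas6 with IL-33, and Tyro3 lies near 1 in both, with 1 vehicle mouse at 0 that a log axis cannot show.

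The make-up of the receptor and ligand signal was computed for each mouse and compared between the groups, a measure that does not depend on the scaling between libraries. Mertk took 98.9% to 99.4% of the summed length-adjusted receptor signal in vehicle mice and 80.0% to 83.6% in IL-33 mice. The share of Axl was 0.933%, 1.03%, 0.848% and 0.559% in vehicle mice 5 to 8 and 19.3%, 17.4%, 16.2% and 19.8% in IL-33 mice 1 to 4. The groups were fully apart, and the mean share went from 0.844% ± 0.204 to 18.2% ± 1.66 (SD, n = 4, exact two-sided permutation test p = 0.0286, the smallest p that 4 against 4 mice allow). Mertk thus remained the main receptor transcript, with 124 ± 36.8 length-adjusted counts for each of Axl in vehicle mice and 4.53 ± 0.514 in IL-33 mice.

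Among the ligands, Gas6 took 37.6%, 41.7%, 33.8% and 36.0% of the length-adjusted signal in vehicle mice 5 to 8 and 12.5%, 15.2%, 17.3% and 12.9% in IL-33 mice 1 to 4. Pros1 was the larger part in every mouse. The mean Gas6 share went from 37.3% ± 3.33 to 14.5% ± 2.20 (SD, n = 4, exact two-sided permutation test p = 0.0286, again the smallest possible). The same test was computed for 8 shares, sums and ratios of the members, each at this smallest p, so Benjamini-Hochberg adjustment over the 8 leaves it at 0.0286. These measures rest on the same members and overlap in content, so they are not separate support. Axl rose and Mertk fell without overlap and Tyro3 was very low, so the Axl share had to separate. Gas6 and Pros1 both fell without overlap, so their sum had to separate too. Their ranges also fixed the separation of the Gas6 share. Per kilobase, Gas6 was at most 54.3 and Pros1 at least 260 with IL-33, against at least 295 and at most 577 with vehicle. The summed receptor level was 2390 ± 101 normalized counts per kilobase with vehicle and 738 ± 61.9 with IL-33, and the summed ligand level was 844 ± 23.5 and 323 ± 12.2.

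**Figure D3:**
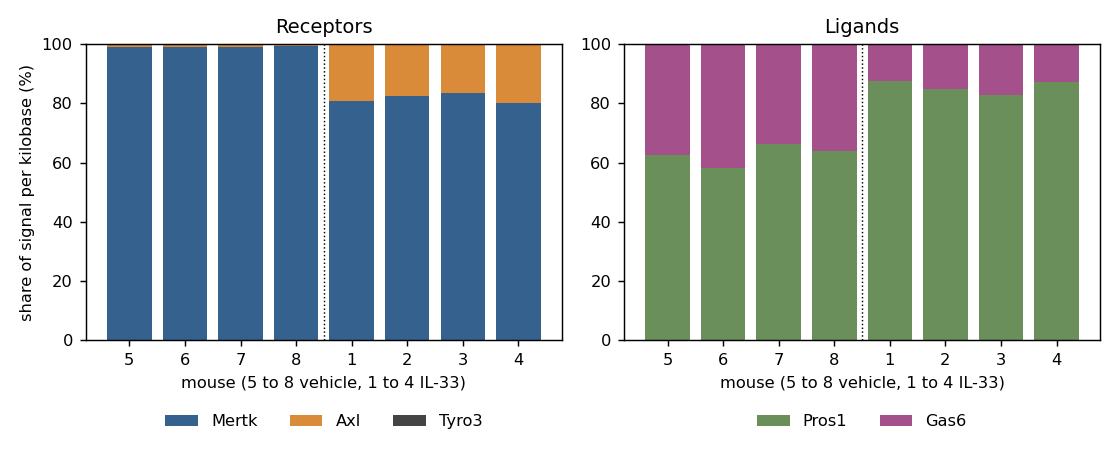
Share of the length-adjusted signal (vertical axis, percent from 0 to 100) taken by each receptor gene and each ligand gene in each mouse. Axl takes 16.2% to 19.8% of the receptor signal in IL-33 mice against 0.559% to 1.03% in vehicle mice, and Gas6 a smaller part of the ligand signal.

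Neither sex nor its combination with IL-33 gave a called difference in the members. Over the whole table, 9 genes (0.0596%) were called for sex and 1 (0.00662%) for the interaction of treatment and sex. For Axl the sex term was -0.37 ± 0.14 on the log2 scale, males lower (limma unadjusted p = 0.0173, adjusted p = 0.913). An unadjusted p under 0.05 was found for 5.03% of all genes for sex and for 8.31% for the interaction, and Axl for sex was the one such case among the members. Mean Axl was 122 in vehicle females and 81.6 in vehicle males, and 712 and 638 in IL-33 females and males, with 2 mice in each. The IL-33 effect on Axl was 0.44 ± 0.26 log2 units larger in males (limma interaction adjusted p = 0.669). The sex terms of Mertk, Gas6 and Pros1 lay between -0.10 and 0.05 on the log2 scale, and their interaction terms between -0.24 and 0.19, with limma adjusted p from 0.690 to 0.994.

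Genes that carry the signal from TAM receptors to the cytoskeleton and to growth signalling split evenly. Of 26 tested adaptors, kinases and exchange factors, 12 rose, 12 fell and 2 were not called, with a median log2 fold change of 0.06 beside 0.02 over all genes tested. The share called was 92.3%, beside 57.7% of all genes. With quantile normalization 11 rose and 13 fell, and the median was -0.08. Vav3, a guanine nucleotide exchange factor, rose from 1.01 ± 0.898 to 105 ± 16.7 normalized counts (SD, n = 4, limma adjusted p = 6.08e-10). It rested on 4 reads in the vehicle group, so the log2 fold change of 5.83 depends on the pseudocount (4.19 with a pseudocount of 5), and DESeq2 gave 6.78. Rac2, a GTPase of blood cells that drives actin assembly, rose by 2.15 log2 units, and Src, a tyrosine kinase, by 1.89. Plcg1, a phospholipase C that receptor tyrosine kinases activate, was at -1.67. Genes of the engulfment module that activates Rac GTPases, named after their values were seen, went different ways. Dock1 was at -1.35, Elmo1 at -0.92, Elmo2 at -0.89 and Rac1 itself at -0.76 log2 units, all called. The adaptors Crk and Crkl rose by 0.40 and 0.36, and Dock2, a partner of Elmo1 in leukocytes, was at -0.09 (limma adjusted p = 0.350).

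In dendritic cells, TAM receptors work together with the interferon receptor to induce SOCS proteins, which shut off cytokine signalling. Among 9 tested genes of TAM feedback and turnover, 5 rose and 1 fell, with a median log2 fold change of 0.79. The share called was 66.7%, beside 57.7% of all genes (29.2% higher, 28.5% lower). Socs3 rose from 231 ± 106 to 2813 ± 197 normalized counts (log2 3.72, limma adjusted p = 4.62e-05), and Ifnar1, a chain of the type I interferon receptor, rose by 1.06. Siah2, a ubiquitin ligase, rose by 1.499. Socs1 rose from 8.24 ± 1.94 to 16.5 ± 2.56 (log2 0.94, limma adjusted p = 0.0359). Its call was lost in 9 of 19 alternatives, among them those without IL-33 mouse 1, 3 or 4 or vehicle mouse 5 or 7 (adjusted p from 0.0571 to 0.100). Twist2 had 0 reads in all mice and Twist1 1 read.

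Receptor shedding is another control of this family, since ADAM17 cuts MERTK from the cell surface and ADAM10 and ADAM17 cut AXL. Of 9 tested proteases and regulators, 6 rose and 3 fell, with a median log2 fold change of 0.64. Thus 66.7% were higher and 33.3% lower, beside 29.2% and 28.5% of all genes. Rhbdf2, whose product iRhom2 brings ADAM17 to the cell surface, rose from 237 ± 36.9 to 1723 ± 131 normalized counts (SD, n = 4, log2 2.87, limma adjusted p = 5.58e-13). Its relative Rhbdf1 rose by 1.05, but missed the threshold when the females were fitted by themselves (adjusted p = 0.0771). Tspan33, which belongs to a group of tetraspanins that guide ADAM10, rose by 0.95, and Timp2, a metalloproteinase inhibitor, was at -1.17. Of the same tetraspanin group, Tspan5 rose by 0.64 and Tspan14 was at -0.83, both called and named after their values were seen. The proteases, named after their values were seen, moved apart. Adam17 rose by 0.81 log2 units, from 2382 ± 133 to 4176 ± 27.5 normalized counts, and Adam10 was at -0.62, from 2142 ± 173 to 1390 ± 34.4.

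The ligands become functional through carboxylation. Among the 4 tested genes of this step and the vitamin K cycle, 2 rose and 1 fell, a share of 75% called beside 57.7% of all genes. Vkorc1, the vitamin K epoxide reductase, named after its values were seen, read 21.6 ± 2.23 and 13.9 ± 3.39 normalized counts in groups that did not overlap (log2 -0.62, limma adjusted p = 0.0995). Calu, a reticulum protein that inhibits the carboxylase, rose by 0.60 log2 units, and Vkorc1l1, a vitamin K reductase, by 0.54. Ggcx, the carboxylase that modifies Gas6 and protein S, was at -0.29 (limma adjusted p = 0.0412), and its call was lost in 10 of 19 alternatives, among them those without IL-33 mouse 2, 3 or 4 or vehicle mouse 5, 7 or 8 (adjusted p from 0.0688 to 0.121).

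Phosphatidylserine has other receptors and bridging molecules. They were listed with genes outside this class, among them Sirpa, Cd47, Calr and Jmjd6, named after their values were seen. Of these, Sirpa fell (log2 -1.21), Jmjd6 rose (0.88), and Cd47 and Calr were not called. Among the 23 genes of the whole list that were tested, 10 fell and 4 rose, with a median log2 fold change of -0.33. The share called, 60.9%, lay near the 57.7% of all genes, with 43.5% lower and 17.4% higher beside 28.5% and 29.2%. Scarf1, a scavenger receptor, was at -2.62 and fell from 30.3 ± 15.5 to 3.77 ± 1.46 normalized counts, with 15 reads in the IL-33 group. Its log2 value was -3.63 in males alone and -1.60 in females alone. These were separate fits with 2 mice per group, and no test of their difference is given here. Itgb3, an integrin chain that binds the bridging protein Mfge8, fell from 1082 ± 73.9 to 190 ± 27.1 (log2 -2.51, limma adjusted p = 1.45e-12), and Trem2, a lipid-sensing receptor, was at -1.499. Cd300ld, of the CD300 family of lipid-binding receptors, rose by 3.51 from 5.71 ± 3.46 (2.81 to 3.77 over the alternatives). Several names were added after their values were seen. Itgb5, the other integrin chain for Mfge8, was at -1.36, and the scavenger receptor gene Stab1 was at -1.497. Lrp1, an endocytic receptor, was at -0.94 and Itgav, the partner chain of both integrins, at 0.97, all called. Mfge8, which bridges phosphatidylserine to integrins as Gas6 does to TAM receptors, read 58.7 ± 17.1 and 47.8 ± 16.6 (log2 -0.32, limma adjusted p = 0.337).

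Mertk is a known target of the lipid-sensing nuclear receptors LXR. Of 13 tested genes for LXR, RXR and PPAR receptors and LXR targets, 6 fell and 2 rose, with a median log2 fold change of -0.24. The share called, 61.5%, lay near the 57.7% of all genes, with 46.2% lower and 15.4% higher beside 28.5% and 29.2%. Nr1h3, which encodes LXR alpha, rose from 15.2 ± 4.91 to 41.4 ± 12.8 normalized counts (log2 1.40, limma adjusted p = 0.00135), and in the fit of the males by themselves it missed the threshold (adjusted p = 0.0663). Scd2, a fatty acid desaturase, Ppard, a fatty acid-sensing receptor, and Abcg1, a cholesterol exporter, were at -1.19, -1.13 and -1.09. Abca1, another LXR target, named after its values were seen, was at -0.08 (limma adjusted p = 0.344). Of 15 tested transcription factors linked to TAM receptor genes or to macrophage identity, 6 fell and 4 rose (median -0.20), and the share called, 66.7%, stands beside the same 57.7%. Fos rose by 6.15 log2 units from 1.84 ± 1.39, with uneven IL-33 mice at 208 ± 144. It rested on 8 reads in the vehicle group, and its log2 value ran from 4.76 to 6.77 over the alternatives. Zeb2 rose by 1.53 log2 units and Spi1, which encodes PU.1, by 1.236. By direction, 40% of these factors were lower and 26.7% higher, beside 28.5% and 29.2% of all genes. Of those that fell, Sp3 was at -0.67 and Nr3c1 at -0.63, while Sp1 was not called, at 0.05 (limma adjusted p = 0.560). Sp1, Sp3 and Nr3c1 were named after their values were seen.

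**Figure D4:**
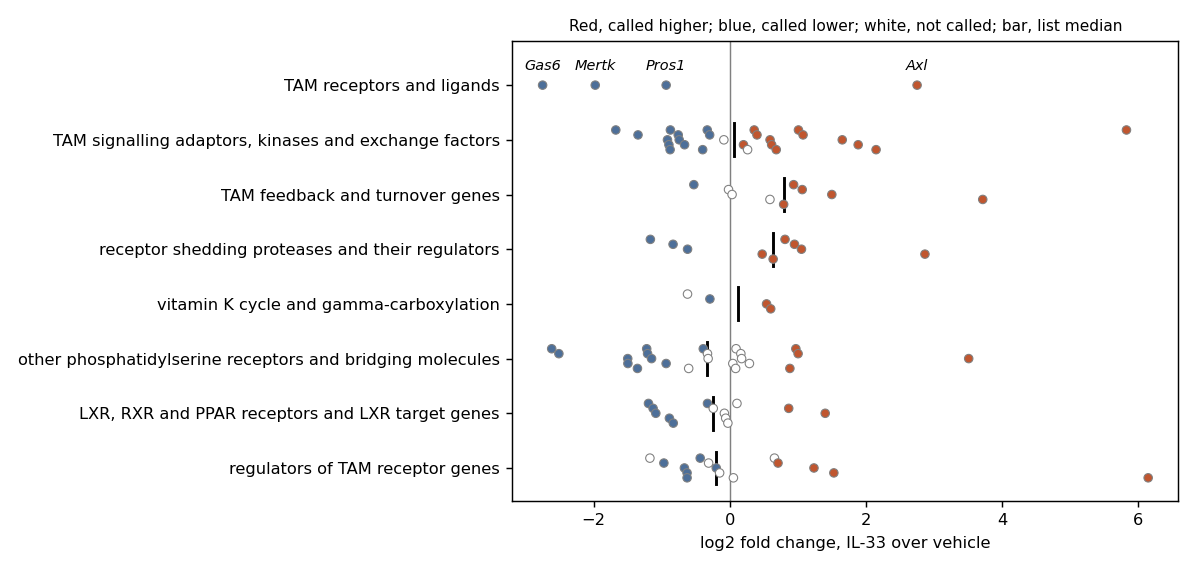
Log2 fold change between IL-33 and vehicle mice (horizontal axis) for the 4 tested members and for the tested genes of 7 pathway lists, 1 point per gene. Red points were called higher, blue points lower and white points were not called, and a black bar marks each list's median, from -0.33 to 0.79.

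The genes whose pattern over the 8 mice lay nearest to each member were found among 9180 protein-coding genes. Likeness was the root mean square difference of log2 values after each gene was centred on its own mean, so that 0 stands for the same profile. Nearest to Mertk were Tjp1, a tight junction scaffold (0.067), Plcb2, a phospholipase C (0.071), and Ankrd44 (0.090). Nearest to Gas6 were Acss1, a mitochondrial acetyl-CoA synthetase (0.077), Pmepa1, a TGF-beta target (0.100), and Tmem144 (0.100). Nearest to Pros1 were Serinc3 (0.030), Eif4ebp2, a repressor of translation initiation (0.041), and Rnf13 (0.049). Axl had no neighbour as close as these, with Slc15a3, a lysosomal transporter, at 0.177, Rhbdf2 at 0.178 and Slamf8 at 0.183. All points share the same 8 libraries and the same treatment difference.

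Markers of cell types that also express TAM genes were read in the same libraries. Microglia markers summed to 22634 to 25523 RPM in vehicle mice and 13420 to 13814 in IL-33 mice, far above every other list. All 10 were tested, of which 7 fell, 1 rose and 2 were not called. This stands beside 28.5% lower and 29.2% higher among all genes tested. P2ry12 fell most, from 28549 ± 2744 to 3974 ± 411 normalized counts (log2 -2.85, limma adjusted p = 5.74e-14). Cx3cr1 was not called, at 25486 ± 2023 and 23306 ± 2090 normalized counts (limma adjusted p = 0.154). Astrocyte markers summed to 199.6 to 235 RPM in vehicle mice and 287 to 341 in IL-33 mice, most of it from Slc1a3. Of the 4 tested, 1 rose (Slc1a3), 1 fell and 2 were not called. Aqp4, the water channel of astrocytes, fell from 29.8 ± 18.1 to 10.1 ± 5.47 normalized counts (log2 -1.40, limma adjusted p = 0.0158), in groups that overlapped. Slc1a2 was at 0.03 log2 units (limma adjusted p = 0.845), and Gfap, below the filter, read 2.62 ± 1.82 and 4.18 ± 3.17 normalized counts. Dendritic cell markers, a type that can express Axl, summed to 36.1 to 48.6 and 96.0 to 128 RPM, and Itgax, Xcr1 and Zbtb46 rose while Flt3 was not called (limma adjusted p = 0.156). Of the rest of that list, Cd209a was at 0 in all mice and Clec9a had 13 and 4 reads in the vehicle and IL-33 groups.

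Border macrophage markers summed to 81.9 to 91.8 RPM in vehicle mice and 28.7 to 35.4 in IL-33 mice, most of it Mrc1, and endothelial markers to 43.6 to 61.7 and 29.9 to 39.9, with 1 and 3 reads of Cldn5. Monocyte markers summed to 9.01 to 13.2 and 7.19 to 10.1 RPM, mural cell markers to 4.94 to 21.9 and 9.08 to 13.1, and oligodendrocyte lineage markers to 95.03 to 108 and 94.1 to 110. Of 8 neutrophil markers, S100a8, S100a9, Ly6g, Retnlg and Ltf had 0 reads in all mice, and the list summed to at most 0.865. Single markers went against their sums, which Mrc1 and Pecam1 carried for border macrophages and endothelium. Endothelial Cdh5 rose by 1.77 log2 units (limma adjusted p = 6.2e-05), and the border macrophage genes Ms4a7 and Pf4, below the filter, had 9 and 9 reads in the vehicle group and 47 and 29 with IL-33. The summed border macrophage, endothelial and microglia markers were lower with IL-33, as were Mertk, Gas6 and Pros1. The summed astrocyte and dendritic cell markers were higher, as was Axl. Most of the astrocyte sum was Slc1a3, while Aqp4 of the same list was called lower. The part of these cell types in the members' changes was not tested.

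**Figure D5:**
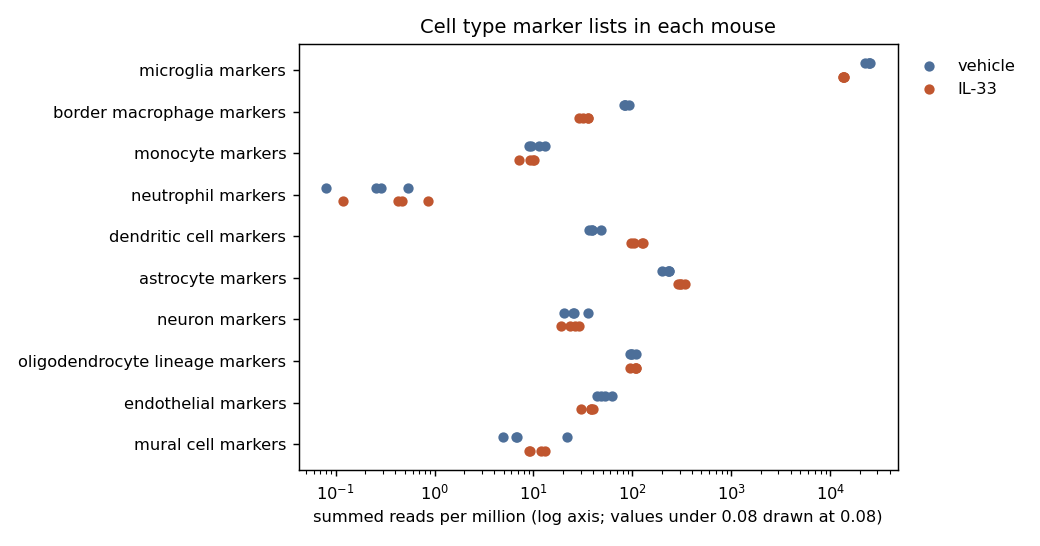
Summed RPM, reads scaled to 1000000 per library (horizontal log axis) of each cell type marker list in vehicle and IL-33 mice, 1 point per mouse, with values under 0.08 drawn at 0.08. Microglia markers lie far above all other lists in both groups, and neutrophil markers stay under 1.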

How the data were processed

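RNA of sorted cortical microglia from 8 mice was measured. Per the labels' protocols, homogenized tissue went through 22% Percoll, microglia were sorted by FACS, and the kit was the Nugen Ovation System V2 for RNA-seq. The expression values deposited by the authors are a signal in normalized counts, read counts divided by 1 size factor per library. Per the submitters' processing notes, FastQC, STAR 2.6.0, HTSeq 0.9.0, DESeq2 1.24.0, mm10 and GRCm38 were used, with no role or order named. The sources used here name neither the strand setting nor the annotation release. All values of each library (100%) came out as whole reads, within 0.001 reads, once divided by the step of that library, so reads were recovered for the count-based alternatives. The table of the authors' own comparison, per the file headers, holds mean normalized counts, log2 fold changes, a score (fold change over standard error) and p-values, and lists 7029 genes.

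From these values, log2 of the normalized count plus 1 was fitted with limma 3.58.1 in R 4.3.3 (eBayes with trend and robust) on treatment and sex over the 15110 genes with 10 or more in at least 4 of 8 libraries. Genes were called at 0.05 after Benjamini-Hochberg adjustment, two-sided. Fold changes are on the log2(value + 1) scale, which draws those of low genes towards 0. On simulated data of 4 against 4 mice (14543 genes tested), the fit called 100% of genes changed by 2 log2 units, 87.7% of those changed by 1, 18.2% of those changed by 0.5 and 0.0697% of unchanged genes. The simulation left 14357 genes unchanged and gave every gene the same dispersion between mice. In the data 57.7% of genes were called, so these percentages do not carry over to this comparison. No pair of mice in a group agreed within sampling noise (chi-square of recovered reads 4.0 to 18.8 per gene, 12 pairs). The pairs with vehicle mouse 6 were at 15.5, 18.8 and 16.2, and no other pair was above 10.7. Of 53801 identifiers, 53706 were in GENCODE M21, which gave names, coordinates and exon lengths. No unmapped columns were left (0). Shares were tested by exact permutation (scipy 1.17.1). Alternatives were edgeR 4.0.16, DESeq2 1.42.0, other scalings, pseudocounts and filters, each sex and each mouse left out.

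The members and lists were chosen with earlier results of these data known. Named are the 5 members, up to 4 called genes of each pathway list with the largest change, and the 3 protein-coding genes most like each member with a mean of 50 or more. Others from the pathway lists, except Twist1 and Twist2, are marked as named after their values were seen. Single cell type markers with reads carry no such mark and were also named after their values were seen. One gene that this rule names is not reported here.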

Additional observations from a re-analysis of the deposited data

How the results depend on the processing

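Mertk, Axl, Gas6 and Pros1 kept their direction and their call in all 19 alternatives. Their log2 fold changes ranged from -2.02 to -1.93, from 2.53 to 2.97, from -2.85 to -2.65 and from -1.05 to -0.82, and their highest adjusted p-values were 1.01e-05, 1.91e-05, 7.21e-06 and 0.000218, by limma, edgeR or DESeq2. Tyro3 had no test in the main fit, and with no filter on low values it was not called (log2 0.43, limma adjusted p = 0.613). The number of genes called ranged from 6336 in females alone to 9385 with no filter, and from 8064 to 8712 with 1 mouse left out. The share of Axl kept its direction in all 12 alternatives. The difference in the Gas6 share was -22.8 percentage points, and -25.8 in females alone and -19.8 in males alone, with 2 mice per group and no test. It was -17.5 with no division by length. Counts of the pathway lists moved by at most 2 genes under TMM factors, quantile normalization or without vehicle mouse 6. These alternatives, and the longest transcript as length, were chosen after seeing the data. No paired analysis was possible because the groups share no mouse number.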
